A study of Mus musculus with 6 samples.

Results

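Fc gamma receptors bind the constant part of IgG antibodies, and with the ITAM adaptors they carry signals into macrophages and other cells of the innate immune system. The genes described here are *Fcgr1*, *Fcgr3*, *Fcgr4*, *Fcgr2b*, *Fcer1g*, *Tyrobp*, *Trem2* and *Sirpa*. They were taken from the deposited normalized table by an exact match of the gene symbol and joined to the raw counts by Ensembl identifier, which gave 8 of the 16247 genes in that table and of the 51912 genes counted. Poly-A RNA was sequenced from the soleus, a slow-twitch calf muscle, of 3 heterozygous Mustn1 KO-first mice (HET) and 3 wild-type littermates (WT), with 1 library per mouse. All mice were 8 weeks old and of the strain given as C57BL6/N. HET mice carried 1 copy of the tm1a allele, a trap present in all tissues, in which a lacZ and neomycin cassette captures the *Mustn1* transcript after its leading exon, and WT mice carried no trap. The comparison of HET with WT asks which transcripts differ when 1 copy of *Mustn1* is trapped.

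The mouse activating Fc gamma receptors signal through the adaptor encoded by *Fcer1g*, whose immunoreceptor tyrosine-based activation motif (ITAM) recruits the kinase Syk once antibody-coated particles cluster the receptor. Tyrobp, also called DAP12, is a second ITAM adaptor and serves receptors such as Trem2. *Fcgr2b* and *Sirpa* encode receptors with inhibitory motifs (ITIM) that bring in phosphatases and restrain the same pathway. In skeletal muscle these genes are known mainly from resident macrophages, and mast cells also use *Fcer1g* and *Fcgr3*.

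The genes of this group lie in the mouse genome build GRCm38, and 4 of them are neighbours on chromosome 1. *Fcgr2b* (ENSMUSG00000026656) spans chr1:170958617-170976547 on the minus strand, *Fcgr4* (ENSMUSG00000059089) chr1:171018920-171029761 on the plus strand, *Fcgr3* (ENSMUSG00000059498) chr1:171051174-171064935 on the minus strand and *Fcer1g* (ENSMUSG00000058715) chr1:171229572-171234365 on the minus strand. *Fcgr1* (ENSMUSG00000015947) lies at chr3:96282909-96293969 on the minus strand and *Sirpa* (ENSMUSG00000037902) at chr2:129592835-129632228 on the plus strand. *Tyrobp* (ENSMUSG00000030579) lies at chr7:30413760-30417585 and *Trem2* (ENSMUSG00000023992) at chr17:48346401-48354147, both on the plus strand.

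The bases just upstream of the start sites are shown with a search for the core GAGGAA. It belongs to a purine-rich box bound by PU.1, a transcription factor of myeloid cells. Binding of PU.1, and any part of it in the differences by genotype, was not tested. RefSeq promoters of GRCm38.p6 were matched for 6 of the 8 genes, all but *Tyrobp* and *Sirpa*. The 250 bases upstream of the start were searched on both strands for GAGGAA, which reads TTCCTC on the other strand. It was present for 4 of the 6 genes, against 23.1% of 27025 promoters. In all 4 it read TTCCTC in the direction of the gene, beginning 55 bases upstream of the start for *Fcgr1*, 6 for *Fcgr3*, 22 for *Fcgr4* and 40 for *Trem2*. *Fcgr3* has another RefSeq start, counted from which the same letters begin 15 bases upstream. The letters were not in the windows of *Fcgr2b* and *Fcer1g*. A search for TTNNGNAA, the pattern of C/EBP factors, found it in 2 of the 6 windows, those of *Fcgr3* and *Fcgr4*, against 36.9% of promoters. The stretches below run 5′ to 3′ on the strand of each gene, lie outside the gene's own exons and have TTCCTC in capitals, and *Fcer1g* is shown as a stretch without it.
*Fcgr1*, chr3:96293970-96294069, minus strand: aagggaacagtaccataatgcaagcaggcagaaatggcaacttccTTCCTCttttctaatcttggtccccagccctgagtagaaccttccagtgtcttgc
*Fcgr3*, chr1:171059404-171059503, minus strand: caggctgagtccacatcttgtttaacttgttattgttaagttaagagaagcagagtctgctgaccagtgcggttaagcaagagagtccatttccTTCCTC
*Fcgr4*, chr1:171018820-171018919, plus strand: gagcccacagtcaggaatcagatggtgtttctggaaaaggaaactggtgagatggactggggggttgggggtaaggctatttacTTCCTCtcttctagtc
*Trem2*, chr17:48346301-48346400, plus strand: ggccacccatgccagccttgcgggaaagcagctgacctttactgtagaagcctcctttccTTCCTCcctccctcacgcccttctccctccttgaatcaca
*Fcer1g*, chr1:171234366-171234465, minus strand: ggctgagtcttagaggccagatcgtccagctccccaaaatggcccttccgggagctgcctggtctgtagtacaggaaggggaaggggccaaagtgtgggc

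Each library held between 26790075 and 50368796 reads on genes. *Mustn1* had 12.6, 16.8 and 13.1 normalized counts (CPM, the reads of a gene scaled to a common library size) in the HET mice and 23.1, 29 and 30.5 CPM in the WT mice, and fell by 0.96 ± 0.15 (SE) on the log2 scale (edgeR adjusted p = 0.0452). Male is the labelled sex, yet *Xist* had 3858 to 9154 reads per library, and the Y-linked genes *Ddx3y*, *Kdm5d*, *Uty* and *Eif2s3y* together had 0 to 12. The libraries of both genotypes went against this label in the same way. Slow fiber markers summed to between 5.98e+04 and 7.01e+04 CPM in HET and between 6.45e+04 and 6.76e+04 CPM in WT and all 7 of them were tested.

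All CPM values of genes and lists include TMM scaling, which sets the libraries on a common scale under the assumption that most genes do not differ. The limits in CPM given for 0 reads, for 3 reads and for the filter come from the reads on genes without this scaling. The edgeR test used throughout is its robust quasi-likelihood test, fitted on the raw counts of 14696 genes, two-sided, and p-values were adjusted over all of these genes by the Benjamini-Hochberg method with a threshold of 0.05. Of the 8 genes, 6 passed the filter on low counts and were tested, and *Fcgr4* and *Trem2* were not part of that fit. None of the 6 passed the threshold in either direction by edgeR, in a background where 0.143% of all genes tested were called higher in HET. At an unadjusted p under 0.05, 5 of the 6 were higher in HET and 0 lower, where 5.76% of all genes were higher. The same 5 genes, *Fcgr1*, *Fcgr3*, *Fcgr2b*, *Tyrobp* and *Sirpa*, had every HET mouse above every WT mouse, which held for 7.55% of the genes tested. The Wald test of DESeq2 called 3 of them higher, *Fcgr3*, *Fcgr2b* and *Sirpa* (background 1.12%), edgeR without the filter called all 5 (background 1.33%), and limma-voom called 0. *Fcgr1* passed the filter through its HET libraries only, so its presence among the genes tested already favours a higher value in HET.

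**Figure D1:**
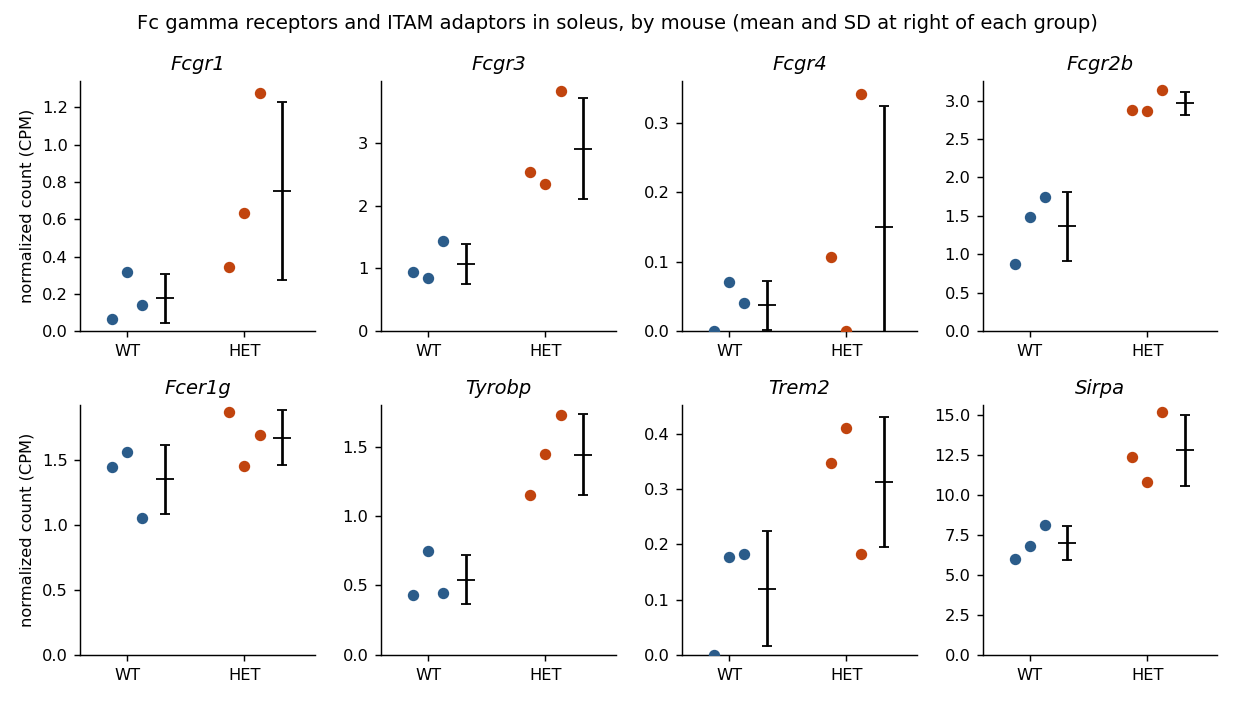
Normalized count (CPM, vertical axis from 0) of each of the 8 genes in the 3 WT mice (blue) and the 3 HET mice (orange), with the mean and SD at the right of each group. The groups are separated for *Fcgr1*, *Fcgr3*, *Fcgr2b*, *Tyrobp* and *Sirpa* and overlap for *Fcgr4*, *Fcer1g* and *Trem2*.

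Among the activating receptors, the high-affinity IgG receptor *Fcgr1* had 0.347, 0.633 and 1.28 CPM in HET replicates 1 to 3 and 0.0669, 0.319 and 0.142 CPM in WT replicates 1 to 3. The lowest HET mouse was barely above the highest WT mouse, and HET replicate 3 stood well above the rest. Means were 0.752 ± 0.476 (SD, n = 3) and 0.176 ± 0.13 CPM, and the log2 fold change was 2.14 ± 0.62 (SE), with a 95% interval from 0.77 to 3.52 and an edgeR adjusted p of 0.28. These levels rest on 13, 17 and 56 reads in HET and 2, 9 and 7 reads in WT, so counting error alone is large. The log2 fold change was 1.48 without HET replicate 3 and 2.75 without WT replicate 2. Over 14 alternatives of scaling, filter, test and left-out mice the adjusted p ran from 0.00396 to 0.953.

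*Fcgr3*, the low-affinity activating receptor of macrophages, natural killer cells and mast cells, was measured at 2.54, 2.35 and 3.83 CPM in HET and 0.936, 0.851 and 1.44 CPM in WT. No HET mouse came down to the WT range, and replicate 3 was the highest mouse in both genotypes. The means of 2.9 ± 0.806 and 1.08 ± 0.317 CPM (SD, n = 3) gave a 2.66-fold difference, or 1.41 ± 0.29 (SE) on the log2 scale, with a 95% interval from 0.77 to 2.05. The unadjusted p of this model was 0.000551 and the edgeR adjusted p was 0.108, with a range from 5.19e-05 to 0.433 over 15 alternatives and a DESeq2 adjusted p of 0.00429.

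*Fcgr4*, an activating receptor for the IgG2 subclasses, was near the limit of detection. It had 4, 0 and 15 reads in HET and 0, 2 and 2 reads in WT, which is 0.107, 0 and 0.342 CPM against 0, 0.0709 and 0.0405 CPM. The library with 0 reads in each genotype allows a level of up to 0.112 CPM in HET replicate 2 and up to 0.0967 CPM in WT replicate 1, counting error only, at 3 counts. The groups overlapped. The gene did not pass the filter, and without the filter edgeR gave an adjusted p of 0.722 and DESeq2 an adjusted p of 1.

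The inhibitory receptor *Fcgr2b*, which binds the same immune complexes and carries an ITIM, had 2.88, 2.87 and 3.14 CPM in HET and 0.87, 1.49 and 1.74 CPM in WT. The HET mice were tightly grouped and all above the WT mice, which spread more widely. Means were 2.97 ± 0.155 and 1.37 ± 0.449 CPM (SD, n = 3), a log2 fold change of 1.10 ± 0.26 (SE) with a 95% interval from 0.52 to 1.67 and an edgeR adjusted p of 0.171 (0.00349 to 0.579 over 15 alternatives). DESeq2 gave an adjusted p of 0.0327. *Fcgr2b* and *Fcgr3* are related in sequence: of the 50-base windows in the GENCODE M21 transcripts of *Fcgr3*, 166 of 1733 (9.58%) also occur in *Fcgr2b*, and reads from such windows are left out of both counts. *Fcgr2b* also shares 155 exonic bases with *Gm38204* on the opposite strand, which the strand-specific counting keeps apart.

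*Sirpa*, the ITIM receptor for the "do not eat me" signal Cd47, was the most abundant of the group by CPM. It was measured at 12.4, 10.8 and 15.2 CPM in HET and 6.02, 6.81 and 8.16 CPM in WT. All HET mice were above all WT mice, and replicate 3 was again the highest in each genotype. The means of 12.8 ± 2.27 and 7 ± 1.08 CPM (SD, n = 3) differed 1.82-fold, a log2 fold change of 0.87 ± 0.17 (SE) with a 95% interval from 0.50 to 1.24. The unadjusted p of this model was 0.000351 and the edgeR adjusted p was 0.0974, with a range from 7.36e-06 to 0.371 over 15 alternatives, and DESeq2 gave 0.000834. Without WT replicate 3 the log2 fold change was 1.0 and the edgeR adjusted p 0.0496.

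Of the ITAM adaptors, *Tyrobp* had 1.15, 1.45 and 1.73 CPM in HET and 0.435, 0.745 and 0.446 CPM in WT, with no overlap between the groups. Its means of 1.44 ± 0.292 and 0.542 ± 0.176 CPM (SD, n = 3) gave a log2 fold change of 1.44 ± 0.33 (SE), with a 95% interval from 0.70 to 2.17 and an edgeR adjusted p of 0.156 (0.00836 to 0.584 over 15 alternatives). *Fcer1g*, which the activating Fc gamma receptors need to reach the cell surface, had 1.87, 1.45 and 1.69 CPM in HET and 1.44, 1.56 and 1.05 CPM in WT. Its ranges overlapped, since WT replicate 2 was above HET replicate 2. The means of 1.67 ± 0.209 and 1.35 ± 0.265 CPM (SD, n = 3) gave a log2 fold change of 0.33 ± 0.25 (SE), and the 95% interval from -0.24 to 0.89 includes both no difference and a moderate one (edgeR adjusted p = 0.865, and 0.719 to 1 over 15 alternatives).

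*Trem2*, a Tyrobp-coupled receptor for lipids and lipoproteins, had 13, 11 and 8 reads in HET and 0, 5 and 9 reads in WT, or 0.347, 0.41 and 0.182 CPM against 0, 0.177 and 0.182 CPM. HET replicate 3 and WT replicate 3 were at the same level, so the groups were not separated. The gene did not pass the filter, and without the filter its log2 fold change was 1.28 ± 0.69 (SE, edgeR adjusted p = 0.755), while DESeq2 gave an adjusted p of 1. The 0 reads in WT replicate 1 allow up to 0.0967 CPM.

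**Figure D2:**
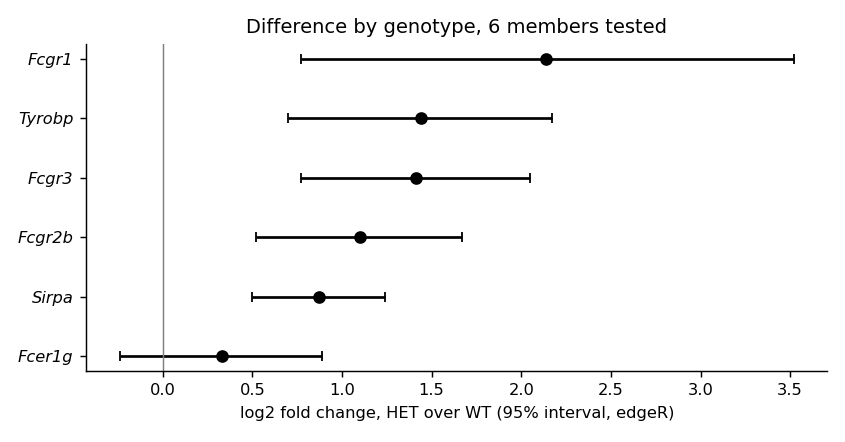
Log2 fold change of HET over WT (horizontal axis) with its 95% interval from edgeR for the 6 genes tested. The estimates run from 0.33 for *Fcer1g* to 2.14 for *Fcgr1*, and only the interval of *Fcer1g* includes 0, before adjustment for the number of genes tested.

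Because a longer transcript gives more reads, levels were compared between genes as CPM per kilobase of exonic length. In WT soleus *Fcer1g* was the most abundant at 1.55 ± 0.303 CPM per kilobase (SD, n = 3), and *Sirpa* followed at 1.43 ± 0.221 with an overlapping range. *Tyrobp* at 0.812 ± 0.264 and *Fcgr3* at 0.619 ± 0.183 CPM per kilobase also overlapped with each other, but every WT value of *Tyrobp* was below every one of *Sirpa*. *Fcgr2b* was lower at 0.236 ± 0.0776 CPM per kilobase, without overlap with its neighbours in the order. *Fcgr1* at 0.068 ± 0.05, *Fcgr4* at 0.0296 ± 0.0283 and *Trem2* at 0.0242 ± 0.021 CPM per kilobase came last, each overlapping with the next.

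In HET soleus the order at the top was different, with *Sirpa* at 2.61 ± 0.462, *Tyrobp* at 2.17 ± 0.437 and *Fcer1g* at 1.91 ± 0.239 CPM per kilobase. *Tyrobp* overlapped with both of the others, while the lowest HET value of *Sirpa*, 2.19 CPM per kilobase, was just above the highest of *Fcer1g*, 2.14. *Fcgr3* came next at 1.67 ± 0.464 and overlapped with *Fcer1g*, and *Fcgr2b* followed at 0.512 ± 0.0267 CPM per kilobase with no overlap with either neighbour. *Fcgr1* at 0.291 ± 0.184, *Fcgr4* at 0.119 ± 0.139 and *Trem2* at 0.0633 ± 0.0238 CPM per kilobase were again the lowest. The exonic length joins all isoforms of a gene, so a gene with unused long isoforms has a level that is too low on this scale.

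Cells weigh activating against inhibitory Fc gamma receptors, so the summed level of *Fcgr1*, *Fcgr3* and *Fcgr4* per kilobase was set against that of *Fcgr2b* within each mouse. The log2 ratio was 1.75, 1.69 and 2.45 in HET and 1.91, 1.38 and 1.61 in WT. HET replicate 3 had the highest ratio, and the other HET mice lay within the WT range. The means of 1.96 ± 0.42 and 1.63 ± 0.27 (SD, n = 3) differed by 0.33, with p = 0.4 in an exact two-sided permutation test, which cannot go below 0.1 with 3 mice against 3.

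The ratio of the adaptors *Tyrobp* and *Fcer1g* was examined after their values were seen. On the log2 scale it was -0.70, 0.00 and 0.04 in HET and -1.73, -1.07 and -1.24 in WT. The groups did not overlap: *Tyrobp* was well below *Fcer1g* in CPM in every WT mouse and at about its level in HET replicates 2 and 3. The means of -0.22 ± 0.42 and -1.34 ± 0.34 (SD, n = 3) differed by 1.12, with p = 0.1 in an exact two-sided permutation test, the smallest it can give.

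**Figure D3:**
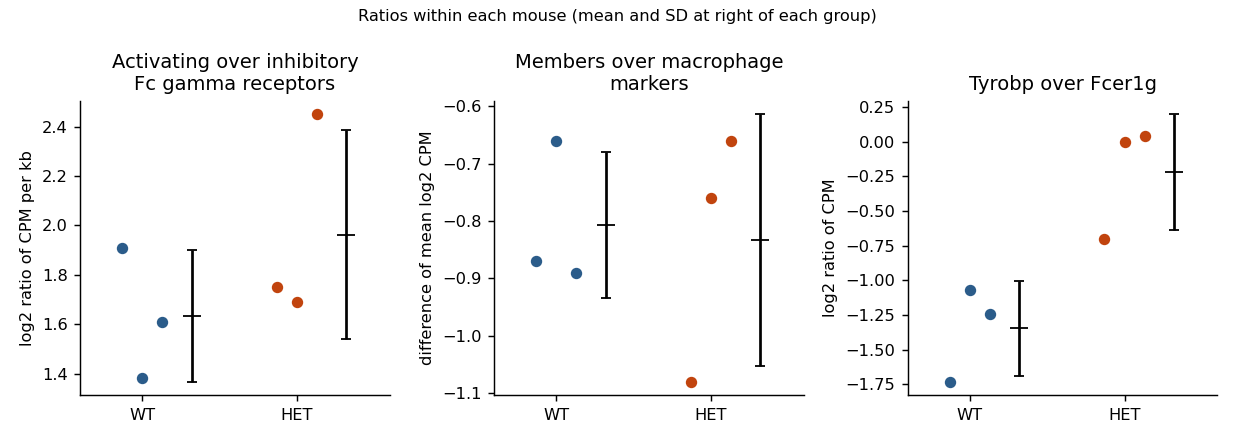
Ratios within each of the 3 WT mice (blue) and 3 HET mice (orange) on the log2 scale, with the mean and SD at the right of each group: activating over inhibitory Fc gamma receptors, the 6 genes tested over macrophage markers, and *Tyrobp* over *Fcer1g*. The groups overlap in the left and middle panels, with differences of 0.33 and -0.03, and are apart in the right panel, with a difference of 1.12.

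Some markers of other cells moved with these genes. In whole muscle, a difference in the number of cells of a type and a difference in RNA per cell cannot be told apart. Of 15 macrophage markers 14 were tested and 4 rose in HET by edgeR (background 0.143%). These were the complement genes *C1qa* and *C1qb*, the surface protein *Adgre1* and the growth factor receptor *Csf1r*, and DESeq2 called 8 (background 1.12%). *Mrc1*, the most abundant of them by CPM, overlapped between the groups, at 16.5 to 33.8 CPM in HET and 16.8 to 23.5 CPM in WT. Its log2 fold change was 0.33, and that of *Mertk* was -0.10 (edgeR adjusted p = 0.872 and 0.954). *Marco* had under 10 reads in every library, and *Itgam* and *Fcna* passed the filter through HET only. The markers summed to between 75.3 and 107 CPM in HET and between 45.4 and 53.1 CPM in WT, without overlap. The summed mast cell markers were 6.09 to 8.27 CPM in HET and 2.84 to 4.43 CPM in WT, also without overlap, although *Ms4a2* and *Fcer1a*, which define the IgE receptor of these cells, had under 10 reads in every library. Of the 5 mast cell markers tested 0 passed by edgeR and 4 had an unadjusted p under 0.05 (5.76% of all genes higher). DESeq2 called 4 (background 1.12%), while 4 of the 5 had passed the filter through HET only. *Kit*, the tested marker that passed in both genotypes, had a log2 fold change of -0.07 (edgeR adjusted p = 0.978). It had 2.06, 1.53 and 2.87 CPM in HET and 2.24, 2.8 and 1.88 CPM in WT.

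Fibroblast markers summed to 1.34e+03 to 1.97e+03 CPM in HET and 666 to 1.02e+03 CPM in WT, and tenocyte markers to 331 to 586 CPM and 104 to 267 CPM, both without overlap. Of the 7 fibroblast markers edgeR called 1 higher (background 0.143%) and DESeq2 called 4 (background 1.12%). Of the 6 tenocyte markers 0 passed by either test. In each list 5 markers had every HET value above the WT values (7.55% of all genes). The groups overlapped for the fibroblast markers *Pdgfra* and *Lum* and for the tenocyte marker *Scx*. *Scx* had a log2 fold change of 0.15 (edgeR adjusted p = 0.893). The sums overlapped for neutrophil markers (3.99 to 6.93 CPM in HET, 4.38 to 4.72 CPM in WT), of which *Ly6g* had 0 reads and *Cxcr2*, *Mpo*, *Elane*, *Camp* and *Ngp* had under 10 in every library. They also overlapped for T and NK cell markers (1.34 to 1.6 and 1.07 to 1.95 CPM), where 9 of 11 had under 10 reads in every library. B and plasma cell markers (1.53 to 2.67 and 2.14 to 2.47 CPM) and red blood cell markers (71.5 to 119 and 83.5 to 134 CPM) overlapped as well. The summed dendritic cell markers overlapped at 11.5 to 12.6 CPM in HET and 11.7 to 13.9 CPM in WT, but most of that sum was *Zbtb46*, with a log2 fold change of -0.25 (edgeR adjusted p = 0.735). *Zbtb46* had every HET value below the WT values, at 10.7, 8.94 and 9.64 CPM against 10.9, 12.9 and 11.2 CPM. That held for 884 of the 14696 genes tested. The other 2 dendritic cell markers tested, *Cd209a* and *Itgax*, had every HET value above the WT values (7.55% of all genes), with log2 fold changes of 2.89 and 1.19 (edgeR adjusted p = 0.174 and 0.539), and DESeq2 gave *Cd209a* an adjusted p of 0.0175. Both passed the filter through HET only. The part of any of these cells in the values of the Fc gamma receptors and adaptors was not tested.

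To set the genes beside macrophage RNA within each mouse, the mean log2 CPM of the 14 macrophage markers was subtracted from that of the 6 genes tested. The difference was -1.08, -0.76 and -0.66 in HET and -0.87, -0.66 and -0.89 in WT. HET and WT mice were interleaved, with means of -0.83 ± 0.22 and -0.80 ± 0.13 (SD, n = 3), and they differed by -0.03, with p = 0.9 in an exact two-sided permutation test. The genes compared include *Fcgr1*, and the markers *Itgam* and *Fcna*, which passed the filter through HET only. Without these 3, an alternative added after the data were seen, the difference was -0.15 (exact p = 0.2), and its sign turned under 4 of all 11 alternatives.

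The 6 genes were also set beside the markers singly, a comparison added after the data were seen, and none differed after adjustment in a test that cannot go below 0.1. *Fcer1g* was at -1.21, -1.32 and -1.47 relative to the markers in HET and at -0.12, -0.34 and -0.95 in WT. The HET mice all lay below the WT mice, with a difference of -0.86 and p = 0.1 in an exact two-sided permutation test, or 0.3 after Benjamini-Hochberg adjustment over 6 comparisons. *Sirpa* was also lower relative to the markers in every HET mouse, at 1.48, 1.53 and 1.67 against 1.90, 1.75 and 1.94, a difference of -0.31 with the same exact p of 0.1 and adjusted value of 0.3. The groups overlapped for the other 4 genes, with differences of 0.62 for *Fcgr1*, 0.22 for *Fcgr3*, 0.18 for *Tyrobp* and -0.03 for *Fcgr2b* (adjusted values between 0.72 and 1 in the same exact test).

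The rest of the pathway was read from 4 lists with 96 genes, of which 59 were tested. None passed the edgeR threshold in either direction, 26 were higher and 0 lower at an unadjusted p under 0.05 (5.76% of all genes higher), and DESeq2 called 2 higher (1.12% of all genes). In 25 of the 59 the HET mice all lay above the WT mice (7.55% of all genes). The median log2 fold change was 0.58, against -0.02 over all genes tested, and 51 of the 59 were above 0, against 6702 of all 14696 genes tested. These counts include 13 genes that passed the filter through HET only.

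Among 26 other receptors that signal through *Fcer1g*, *Tyrobp* or a hemITAM, 4 were tested. Of these, 2 were higher at an unadjusted p under 0.05 (5.76% of all genes higher), and the median log2 fold change was 0.94. *Clec7a*, the Dectin-1 receptor for fungal glucans, had 0.851 ± 0.357 CPM in HET and 0.263 ± 0.0584 CPM in WT, a log2 fold change of 1.75 ± 0.43 (SE, edgeR adjusted p = 0.189). *Cd300ld* followed with 1.51 ± 0.49 (edgeR adjusted p = 0.37), and both passed the filter through HET only. At the other end, *Clec5a*, a Tyrobp-coupled lectin that also passed the filter through HET only, had 0.37 ± 0.46, and *Oscar*, an *Fcer1g*-coupled collagen receptor, had -0.32 ± 0.54 (edgeR adjusted p = 0.924 and 0.947).

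Of 32 kinases and adaptors downstream of the ITAM, 31 were tested, and 7 of these passed the filter through HET only. At an unadjusted p under 0.05, 15 were higher in HET and 0 lower (5.76% of all genes higher). The median log2 fold change was 0.58. *Syk*, the kinase that docks on the ITAM, had a log2 fold change of 0.69 (edgeR adjusted p = 0.276). *Pik3ap1*, an adaptor for phosphoinositide 3-kinase, had 2.0 ± 0.43 (SE), the Src family kinase *Fgr* 1.86 ± 0.51 and the adaptor *Lcp2*, also called SLP-76, 1.59 ± 0.42, with edgeR adjusted p of 0.125, 0.256 and 0.225. These 3 passed the filter through HET only. *Nckap1l*, a haematopoietic subunit of the complex that drives actin branching in phagocytosis, had 3.13, 2.91 and 3.33 CPM in HET and 1, 1.67 and 1.22 CPM in WT, with a log2 fold change of 1.28 ± 0.23. It is named, like *Syk*, after its value was seen, since it was the gene of this list that DESeq2 called (adjusted p = 0.0026, against 0.0785 by edgeR). The kinase subunit *Pik3cd* had 13.1 ± 0.417 and 14.7 ± 2.94 CPM and a log2 fold change of -0.17 ± 0.14, and the adaptor *Card9* had -0.16 ± 0.32 (edgeR adjusted p = 0.878 and 0.959).

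The list of other ITIM receptors, phosphatases and restraints held 24 genes, of which 19 were tested, 3 of them through HET only. At an unadjusted p under 0.05, 7 were higher in HET (5.76% of all genes higher). The median log2 fold change was 0.59. *Dok2*, an adaptor that damps tyrosine kinase signals, had 1.87, 1.6 and 1.89 CPM in HET and 0.736, 0.603 and 0.506 CPM in WT. The groups were far apart, with a log2 fold change of 1.56 ± 0.28 (SE), an edgeR adjusted p of 0.0785 and a DESeq2 adjusted p of 0.00569. The ITIM receptors *Clec4a2*, which passed the filter through HET only, and *Pirb* had 1.82 ± 0.48 and 1.56 ± 0.39 (edgeR adjusted p = 0.237 and 0.197). *Ptpn11*, the widely expressed phosphatase SHP-2, was at 192 ± 7.67 CPM in HET and 191 ± 13.2 CPM in WT, with a log2 fold change of 0.01 ± 0.08. The ITIM receptor *Cd300a* had -0.18 ± 0.29 (edgeR adjusted p = 0.944).

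Of 14 ligands and other IgG receptors 5 were tested, and 2 were higher at an unadjusted p under 0.05 (5.76% of all genes higher). All 5 log2 fold changes were above 0, against 6702 of all 14696 genes tested, with a median of 0.21. The largest was the IgM heavy chain gene *Ighm*, with 4.07 ± 0.428 CPM in HET and 2.49 ± 0.323 CPM in WT. Its log2 fold change was 0.71 ± 0.19 (SE, edgeR adjusted p = 0.232). The Trem2 ligand *Apoe* followed with 0.69 ± 0.28 (edgeR adjusted p = 0.622). No IgG heavy chain gene of the list was among the 5 tested, so RNA of the antibodies that Fc gamma receptors bind was not compared. *Cd47*, the ligand of Sirpa, had 38.7 ± 3.48 and 33.5 ± 2.15 CPM and a log2 fold change of 0.21 ± 0.10 (edgeR adjusted p = 0.699). The intracellular antibody receptor *Trim21* had 0.10 ± 0.19 and *Fcgrt*, the neonatal Fc receptor, 0.09 ± 0.11 (edgeR adjusted p = 0.959 and 0.919).

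**Figure D4:**
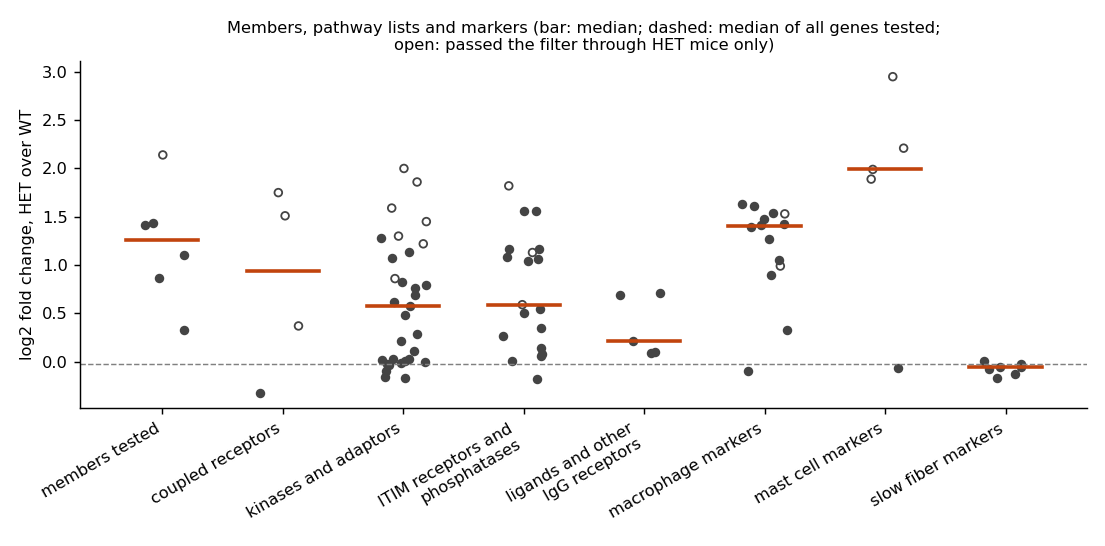
Log2 fold change of HET over WT (vertical axis) for each tested gene of the group, the 4 pathway lists and 3 marker lists, with a bar at the list's median and a dashed line at the median of all genes tested, -0.02. Open circles passed the filter on low counts through HET mice only; the kinases and adaptors have a median of 0.58, the macrophage markers 1.40 and the slow muscle fiber markers -0.06.

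The genes outside the group whose profile over the 6 mice was most like the mean of its tested members are given as a description only, over mice that fall into 2 genotypes. The 10 closest had Pearson's r between 0.99 and 1.0. They were *Mob3b*, *Lsp1*, *Rrbp1*, *Col5a3*, *Col6a3*, *Folr2*, *Lyz2*, *C5ar1*, *Trim30d* and *Gas7*, which include the macrophage lysozyme *Lyz2*, the complement receptor *C5ar1* and collagen chains of the matrix. *Lyz2* rose by 1.29 on the log2 scale (edgeR adjusted p = 0.0147), and *Lsp1* and *Gas7* rose by 0.79 and 1.07 (edgeR adjusted p = 0.0452 for each). The others of the 10 did not pass the threshold (edgeR adjusted p from 0.0655 to 0.482). Because the 10 were chosen for likeness to genes that were mostly higher in HET, a higher value in HET follows in part from the choice. Within the group, *Fcer1g* followed the others least closely, with r = 0.51 against the mean of the other 5.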

How the data were processed

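RNA from the soleus of 3 HET and 3 WT mice was sequenced as single-end reads from stranded poly-A libraries. The authors aligned the reads to GRCm38.p6 with STAR 2.7.3a and deposited raw counts per gene from featureCounts 2.0.3 in its reverse-stranded mode, which drops multi-mapping reads and those shared by several genes. The authors also deposited a normalized signal for 16247 genes, which is the raw count divided by a DESeq2 size factor per library (0.773 to 1.42), and it was used here to find the genes by symbol. The remaining deposited file holds the authors' own DESeq2 comparison (fold changes and p-values) and was not used. No column was without a sample (0). GENCODE M21 named 51633 of the 51912 genes.

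Counts were analysed in R 4.3.3 with edgeR 4.0.16 (filterByExpr with a minimum count of 10, about 0.297 CPM, TMM, robust quasi-likelihood test on the 6 mice, with no covariate besides genotype), limma 3.58.1 and DESeq2 1.42.0, and in Python 3.11.15 (SciPy 1.17.1, NumPy 2.4.6, matplotlib 3.10.9, pandas 2.3.3). To obtain the SE, the log2 fold change was divided by the square root of F. Log2 CPM for ratios to markers had a prior count of 2. The genes described and the lists were chosen with earlier results of these data known. Named were the 8 genes in full, and of each pathway list the genes past the threshold, the 3 with the largest and the 2 with the smallest log2 fold change, besides the 10 most similar genes and the label checks. Other genes named were chosen after their values were seen.

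Libraries held 26790075 to 50368796 reads on genes, and 3 reads correspond to 0.0596 to 0.112 CPM. Mice of 1 genotype differed more than repeated counting would give, with a chi-square per gene of 15 to 42.8 against 1. The biological coefficient of variation was 0.143. The labels do not say which mice shared a litter or a handling day, so p-values measure the spread between these mice. Alternatives were other scaling factors, other filters, DESeq2, limma-voom, a replicate block, non-robust dispersion, each mouse left out, and other references for the ratios. On simulated counts for this comparison over 14502 genes, edgeR recovered 135 of 196 genes changed 2-fold (68.9%) with 10 false calls in all, and DESeq2 recovered 141 of 200 (70.5%) with 24 false calls over 14696 genes. The changed genes were drawn at random from genes of every level. These shares therefore do not give the recovery at the low counts of the genes described here.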

Additional observations from a re-analysis of the deposited data

How the results depend on the processing

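The log2 fold changes of *Fcgr1*, *Fcgr3*, *Fcgr2b*, *Fcer1g*, *Tyrobp* and *Sirpa* were above 0 under every alternative in which they were tested, and their calls depended on the test and the filter. Of the 8 genes, edgeR called 0 as reported, 5 without the filter, 2 with the replicate block (*Fcgr3* and *Sirpa*) and 3 called by DESeq2, between 0 and 1 when each mouse was left out (1 without WT replicate 3), and 0 under the other scalings, the stricter filter, non-robust dispersion and limma-voom. *Fcgr1* was not tested at 10 reads in every library. Of the pathway lists, 0 genes were called as reported, 9 without the filter and 2 by DESeq2. Over all genes, 21 were called higher and 1 lower as reported, 386 and 18 without the filter, 200 and 10 by DESeq2, 114 and 2 with the replicate block, 3 and 0 by limma-voom, 6 and 0 with non-robust dispersion, 64 and 3 without WT replicate 3, 9 and 1 without HET replicate 2 and 0 in the other 4 fits with a mouse left out. The causes were not tested.

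The difference in the members relative to macrophage markers, -0.03 as reported, was -0.15 with *Csf1r*, *Adgre1* and *Cd68* as the reference, 0.09 with *Ptprc* as the reference, 0.01 with a prior count of 0.5 and -0.15 without *Fcgr1*, *Itgam* and *Fcna* (added after the data were seen), ran from -0.11 to 0.09 when each mouse was left out (0.09 without HET replicate 1 and 0.04 without WT replicate 2), and was -0.03 with the replicate block. The activating to inhibitory ratio was higher in HET under all 9 alternatives, with differences of 0.09 to 0.47 when each mouse was left out and 0.33 with the replicate block. Deviations of same-numbered mice from their genotype means had r = 0.203, -0.00578 and -0.0349, against -0.137 to 0.133 for unlike numbers. With 3 mice per genotype these values cannot settle whether the replicate numbers pair the mice. The main test took the numbers as names only. Depth limits the precision for *Fcgr1* (2 to 56 reads per library), *Fcgr4* (0 to 15) and *Trem2* (0 to 13).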
